A study of Mus musculus with 16 samples.

Results

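The RNA of 10 genes whose proteins write, read or remove Polycomb, H3K9 and DNA methylation marks was followed in mouse CD8+ T cells given a guide RNA against Tardbp, the gene of the RNA-binding protein TDP-43. The 10 genes (Ezh2, Suz12, Eed, Suv39h1, Kdm6b, Dnmt1, Uhrf1, Dnmt3a, Tet2 and Tet3) were found by their GENCODE M21 symbols among 55536 annotated genes, 1 entry per symbol, and all 10 passed the filter on low counts. OT-I cells (strain OT-1 Tg C57BL/6J, from Rag-deficient donors per the methods), whose transgenic receptor recognises the ovalbumin peptide SIINFEKL, had been electroporated with the Cas9 nuclease. The guide was scrambled in the Control gRNA group and cut Tardbp in the Tardbp gRNA group. Both groups went into C57BL/6J recipients that were given the peptide with agonist antibodies to OX40 and 4-1BB. The transferred CD8+ T cells were then sorted from spleen and lymph nodes, by CD45 markers per the methods. The labels put this 4 days later and the methods earlier. There were 8 libraries in each group, and p-values measure the spread between them. They do not measure a spread between guides, since the methods name 1 guide per group. The number of electroporations per group is not stated. The Tardbp gRNA cells were an edited pool and not a clone, and no cells without antigen or without costimulation were compared here.

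Polycomb repressive complex 2 (PRC2) places methyl groups on lysine 27 of histone H3 (H3K27) and keeps genes silent. In CD8+ T cells it is known for silencing genes of the memory program while effector cells multiply. DNA methylation is copied at each replication by DNMT1, which UHRF1 brings to newly made DNA, so dividing cells need both in S phase. DNMT3A places new methyl groups, and the TET enzymes oxidise them. SUV39H1 methylates lysine 9 of histone H3 (H3K9), and KDM6B removes methyl groups from H3K27.

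Libraries held between 56016533 and 94801105 estimated counts in annotated genes, from between 29714709 and 48164083 read pairs. Tardbp had 171.8, 198.4 and 206.9 CPM (counts-per-million, with library sizes scaled by TMM, the trimmed mean of M values; lowest, median and highest of 8 libraries) in Control gRNA and 110.4, 136.4 and 147.2 in Tardbp gRNA. Every Tardbp gRNA library was below every Control library, and the group's mean was 70.1% of the Control mean (log2 fold change -0.51, SE 0.056, edgeR adjusted p 8.07e-07). The RNA level does not measure loss of the protein. The paper reports from an immunoblot of pooled cells that TDP-43 was absent with the Tardbp guide. The 8 CD8 T cell markers were all called and all higher in Tardbp gRNA, with a summed level of 4817 to 5832 CPM in Control and 6699 to 8405 CPM in Tardbp gRNA. Of the markers of other cells, none of 3 CD4, 4 B cell, 2 red cell precursor and 2 NK cell genes tested was called, and of 4 myeloid genes tested Lyz2 was. The uncalled log2 fold changes were 0.32 to 1.40 for B cell, 0.57 and 0.86 for NK cell, 0.09 and 0.69 for red cell precursor and -0.32 to 0.38 for CD4 genes. These 4 lists each summed to at most 18.4 CPM in any library, where a difference is hard to call. The RNA concentration before dilution was 34.9 to 197.1 in Control and at most 24.0 in Tardbp gRNA (unit not stated), so concentration and guide cannot be told apart. The deposited letter M or F did not follow the RNA of Xist or of Y-linked genes, both of which were found in every library. Libraries numbered 1 to 3 stood apart from those numbered 4 to 8 in both groups on the second principal component (8.6% of the variance, 9.20 to 49.1 against -31.1 to 1.10), a division that no label names. Of the 10 genes, 5 were called within numbers 4 to 8 alone and 3 within numbers 1 to 3 alone.

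Of the 10 genes, 6 were called (edgeR's quasi-likelihood test, adjusted p under 0.05 over all tested genes), where 46.7% of the 16650 genes tested were. Dnmt1, Uhrf1, Suv39h1 and Ezh2 were lower in Tardbp gRNA, as were 23.3% of all genes, and Kdm6b and Tet3 were higher, as were 23.5% of all genes. Suz12, Eed, Dnmt3a and Tet2 were not called. The libraries of the groups did not overlap for 5 of the 10 genes (Dnmt1, Uhrf1, Suv39h1, Ezh2 and Kdm6b), against 16.9% of all genes tested. The median log2 fold change of the 10 genes was -0.04, and that of all tested genes was 0.05. In bulk RNA, fewer cells of a type and less RNA per cell cannot be told apart.

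**Figure D1:**
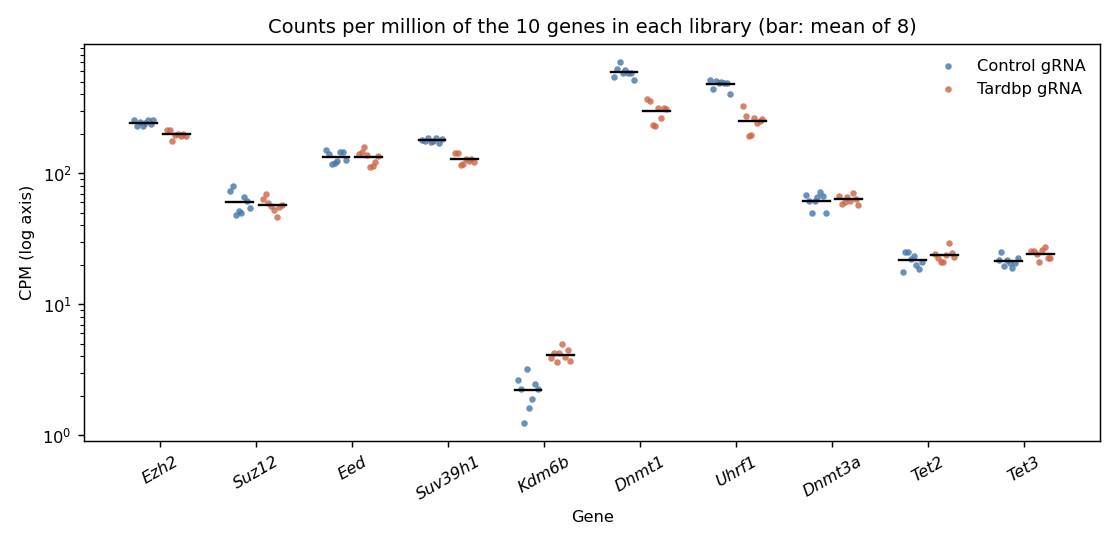
Level in CPM (log axis) of the 10 genes in each library, with 8 Control gRNA libraries (blue) and 8 Tardbp gRNA libraries (orange) per gene and a bar at each mean. Dnmt1 and Uhrf1 show the widest downward gaps, Suv39h1 and Ezh2 smaller ones, and Kdm6b lies higher in every Tardbp gRNA library at a level under 6 CPM, while the points of Suz12, Eed, Dnmt3a, Tet2 and Tet3 overlap.

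Short stretches of promoter sequence are shown for the genes that hold a motif of E2F, the factors that switch on genes at the start of S phase, since the genes that fell include known S-phase genes. RefSeq promoters (GRCm38.p6, 250 bases before to 50 after the start) were at hand for 9 of the 10 genes, in 15 windows, and not for Kdm6b. The octamers TTTCCCGC, TTTCGCGC, TTTGCCGC and TTTGGCGC were searched on both strands, and overlapping matches were each counted. They were found in 5 of the 9 genes, namely the 4 that were lower (Ezh2, Dnmt1, Uhrf1 and Suv39h1) and Suz12. The octamer is in capitals, with 11 bases on each side where the window allows, 5′ to 3′ on the strand of the gene.
Ezh2, chr6:47595009-47595038, minus strand: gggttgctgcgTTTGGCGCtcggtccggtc
Suz12, chr11:79992876-79992905, plus strand: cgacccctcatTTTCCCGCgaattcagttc
Suv39h1, chrX:8074407-8074436, minus strand: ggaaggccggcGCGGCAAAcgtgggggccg
Uhrf1, chr17:56304117-56304146, plus strand: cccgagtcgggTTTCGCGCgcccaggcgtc
Dnmt1, chr9:20952824-20952853, minus strand: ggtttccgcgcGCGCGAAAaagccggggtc
Dnmt1, second match, chr9:20952574-20952601, minus strand: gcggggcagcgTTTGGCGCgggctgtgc
In Suv39h1 and in the first match of Dnmt1 the octamer lies on the opposite strand. One or more octamers were in 2.26% of all 32851 promoters in the table. By gene, which can have several windows, they were in 4.82% of tested genes with a promoter, 6.81% of those called lower, 3.73% of those called higher and 4.22% of those not called. For Dnmt1, Uhrf1 and Suv39h1 the window with the octamer belongs to a start other than that of the transcript with the highest count. A match describes the letters only, and binding was not measured.

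PRC2 needs EZH2, the subunit that carries the methyltransferase, together with SUZ12 and EED, which hold the complex together and make it active. Among these core genes Ezh2 was the one that was called. Ezh2 (ENSMUSG00000029687.16, chromosome 6, 47530139 to 47595341, minus strand, GRCm38) had 227.5, 243.5 and 256.8 CPM (lowest, median and highest of 8) in Control gRNA and 177.1, 197.3 and 214.4 in Tardbp gRNA. Every Tardbp gRNA library was below every Control library. Mean level fell from 243.4 ± 10.8 to 197.6 ± 12.1 CPM (SD, 8 libraries each), to 81.2% of Control (log2 fold change -0.30 with an SE of 0.041, edgeR adjusted p 9.48e-06). Scaled to S-phase genes, below, the log2 fold change of Ezh2 was above 0 but under the median of all tested genes (0.62). That call was lost under 2 of 19 other settings.

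Suz12 (ENSMUSG00000017548.15, chromosome 11, 79993106 to 80034123) had 48.0, 57.7 and 79.7 CPM in Control gRNA and 46.2, 56.5 and 69.7 in Tardbp gRNA. Its groups overlapped, with 2 Control libraries above every Tardbp gRNA library, and the log2 fold change was -0.07 (SE 0.106, edgeR adjusted p 0.595). Eed (ENSMUSG00000030619.9, chromosome 7, 89954654 to 89980983) had 116.6, 132.7 and 149.2 CPM in Control gRNA and 111.9, 136.7 and 157.3 in Tardbp gRNA (log2 fold change -0.0031 with an SE of 0.074, edgeR adjusted p 0.979). The control range of Eed lay inside that of Tardbp gRNA.

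The demethylase gene Kdm6b (ENSMUSG00000018476.7, chromosome 11, 69398508 to 69413675) works against PRC2 and moved the other way from Ezh2 under TMM, at a far lower level. Its paralog Kdm6a, at a higher level, was lower, as was Ezh2. Scaled to S-phase genes, Ezh2 and Kdm6b were both higher, as given below. Kdm6b had 1.24, 2.26 and 3.22 CPM in Control gRNA and 3.66, 4.08 and 5.01 CPM in Tardbp gRNA. No library of Tardbp gRNA was as low as the highest Control library. The mean rose 1.88-fold, from 2.20 ± 0.62 to 4.14 ± 0.457 CPM (SD, 8 libraries each; log2 fold change 0.91 with an SE of 0.156, edgeR adjusted p 1.03e-04). The 16 libraries together held 4022 counts of Kdm6b, against 283151 of Ezh2. Myeloid cells also express Kdm6b, and the 5 myeloid markers summed to 14.8 to 35.1 CPM in Control and 19.0 to 79.1 CPM in Tardbp gRNA, and none of the 5 was without counts. Of the 4 tested, Lyz2 was called (log2 fold change 1.58, edgeR adjusted p 0.00417), while Csf1r was at 0.81 (0.066), Adgre1 at 0.76 (0.103) and Itgam at -0.57 (0.0671). With the log2 of that sum as a covariate, chosen after these values were seen, the log2 fold change of Kdm6b was 0.85 (edgeR adjusted p 0.00189). The sum joins markers with fold changes of both signs, so it is a poor measure of myeloid cells. A myeloid source of the Kdm6b counts was not tested.

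DNMT1 and UHRF1 keep DNA methylation through cell division, and their genes had the lowest fold changes of the 10. Dnmt1 (ENSMUSG00000004099.16, chromosome 9, 20907209 to 20959888, minus strand) had 509.9, 583.6 and 704.9 CPM in Control gRNA and 228.5, 311.5 and 368.8 in Tardbp gRNA. The gap between the groups, from 368.8 to 509.9 CPM, was as wide as the Tardbp gRNA range itself. Mean level fell from 592.3 ± 58.6 to 298.2 ± 51.8 CPM (SD, 8 libraries each), to 50.3% of Control (log2 fold change -0.99 with an SE of 0.094, edgeR adjusted p 2.08e-07).

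Uhrf1 (ENSMUSG00000001228.14, chromosome 17, 56303321 to 56323486, plus strand) had 403.9, 488.5 and 514.9 CPM in Control gRNA and 193.2, 256.1 and 324.4 in Tardbp gRNA, without overlap. Mean level fell from 477.9 ± 37.4 to 250.5 ± 42.1 CPM (SD, 8 libraries each), to 52.4% of Control (log2 fold change -0.93 with an SE of 0.088, edgeR adjusted p 1.88e-07). Tardbp gRNA replicates 3 and 4 were lowest for both Dnmt1 and Uhrf1, at 235.0 and 228.5 CPM of Dnmt1 and 193.2 and 197.2 CPM of Uhrf1, and replicate 1 was the highest of its group for both, while in Control replicate 1 was second lowest for Dnmt1 and highest for Uhrf1.

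Suv39h1, the gene of an H3K9 methyltransferase of silent heterochromatin, was the third of the 10 in size of decrease and the least variable in Control. Suv39h1 (ENSMUSG00000039231.18, chromosome X, 8061171 to 8074760, minus strand) had 170.3, 177.6 and 186.1 CPM in Control gRNA and 114.6, 126.3 and 142.9 in Tardbp gRNA. The groups did not overlap. Mean level fell from 178.5 ± 5.43 to 127.6 ± 10.3 CPM (SD, 8 libraries each), to 71.5% of Control (log2 fold change -0.48 with an SE of 0.045, edgeR adjusted p 1.85e-07). Scaled to S-phase genes, below, the log2 fold change of Suv39h1 was narrowly above 0. That call was lost under 14 of 19 other settings, and the sign was negative under 2.

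The genes of the enzyme that sets new DNA methylation and of those that remove it stayed close to Control. Dnmt3a (ENSMUSG00000020661.15, chromosome 12, 3806007 to 3914443, plus strand) had 49.8, 63.5 and 71.8 CPM in Control gRNA and 57.1, 62.5 and 70.2 in Tardbp gRNA (log2 fold change 0.03 with an SE of 0.075, edgeR adjusted p 0.798). Tet2 (ENSMUSG00000040943.12, chromosome 3, 133463679 to 133545139) had 17.7, 21.7 and 25.2 CPM in Control gRNA and 20.98, 23.2 and 29.6 in Tardbp gRNA (log2 fold change 0.13 with an SE of 0.085, edgeR adjusted p 0.231). For both genes most libraries of one group lay within the range of the other.

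Tet3 (ENSMUSG00000034832.15, chromosome 6, 83362373 to 83459084) had 18.8, 21.3 and 25.2 CPM in Control gRNA and 21.2, 24.9 and 27.4 in Tardbp gRNA. The groups overlapped, and the mean rose 1.14-fold (log2 fold change 0.19, SE 0.067, edgeR adjusted p 0.0289). This call was lost under 18 of 26 other settings, among them a fit within numbers 4 to 8 alone (edgeR adjusted p 0.101) and leaving out any single library but Control replicates 1 and 2 and Tardbp gRNA replicates 3 and 4 (adjusted p up to 0.135 without one of the other 12), whereas the calls of Dnmt1, Uhrf1 and Suv39h1 held under all 26.

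Compared per length (CPM per kilobase of all annotated exons, which understates genes with many annotated exons), the order of levels differed little between groups at its ends. In Control gRNA, Uhrf1 was at 112.2 ± 8.79 and Dnmt1 at 80.3 ± 7.95 CPM per kilobase (SD, n = 8), with ranges that just met at 94.8 and 95.6, both above Ezh2 (36.5 ± 1.62), Eed (34.8 ± 3.36) and Suv39h1 (33.9 ± 1.03). The ranges of the last 3 overlapped, although Ezh2 and Suv39h1 differed by more than the SD of either, with Suz12 (12.2 ± 2.35), Dnmt3a (3.72 ± 0.4934), Tet2 (1.28 ± 0.166), Tet3 (1.28 ± 0.115) and Kdm6b (0.317 ± 0.0892) below them. Tet2 and Tet3 did not differ beyond their spread. In Tardbp gRNA, Uhrf1 (58.8 ± 9.89) and Dnmt1 (40.4 ± 7.02) were still at the top, but Eed (34.7 ± 4.22) was within the spread of Dnmt1 and above Ezh2 (29.6 ± 1.81) and Suv39h1 (24.2 ± 1.95).

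Several of these genes are transcribed mostly in S phase, so they were set beside 30 S-phase genes. Of these, 29 were lower, with a median log2 fold change of -0.50, and Ccne1 (-0.25) was not called. Pola1, a subunit of DNA polymerase alpha, was at -0.89 and the replicative helicase gene Mcm4 at -0.77, while Slbp and Prim1 had the smallest called decreases (-0.26 and -0.24). The summed level of the list was 12784 to 14214 CPM in Control and 8108 to 10131 CPM in Tardbp gRNA, without overlap. Of 20 mitosis genes, 17 were lower and none higher, with a median of -0.49, from Bub1 (-0.87) and Kif11 (-0.78) to Nusap1 (-0.34) and Cenpf (-0.24). Dnmt1 and Uhrf1 thus had log2 fold changes below that of every one of these 50 genes, Suv39h1 was near the median of both lists, and Ezh2 was close to Pcna (-0.30).

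When each library was scaled to its S-phase counts, 75.3% of all genes were called, 73.1% higher and 2.23% lower, and the median over all tested genes moved from 0.05 to 0.62 on the log2 scale. All 10 genes were called on this scale, 8 of them higher. Dnmt1 (log2 fold change -0.43, SE 0.070, edgeR adjusted p 2.44e-05) and Uhrf1 (-0.37, SE 0.064, 4.94e-05) were the 2 that remained lower. On the same scale 8 of the 30 S-phase genes were also called lower and 13 higher. Of the 20 mitosis genes 3 were called lower and 8 higher. Ezh2 turned to 0.27 (SE 0.042, edgeR adjusted p 1.07e-05) and Suv39h1 to 0.09 (SE 0.039, 0.0497), both under the median of all genes, and the call of Suv39h1 was lost without any one of 13 libraries (0.0511 to 0.099). Scaled to the 20 mitosis genes instead, Ezh2 was at 0.11 and Suv39h1 at -0.074, neither called (edgeR adjusted p 0.0798 and 0.172), and the other 8 genes kept direction and call. Suz12 (0.49), Eed (0.57), Dnmt3a (0.61), Tet2 (0.71) and Tet3 (0.76) lay near that median, and Kdm6b (1.48) was above it. When the mean log2 CPM of the S-phase genes entered the TMM fit as a covariate instead, Dnmt1 was at -0.06 and Uhrf1 at -0.02 (edgeR adjusted p 0.998 and 0.999) and none of the 10 was called. That mean was 8.01 to 8.15 in Control and 7.41 to 7.73 in Tardbp gRNA, so it nearly coincides with the guide and the 2 cannot be told apart in such a fit.

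**Figure D2:**
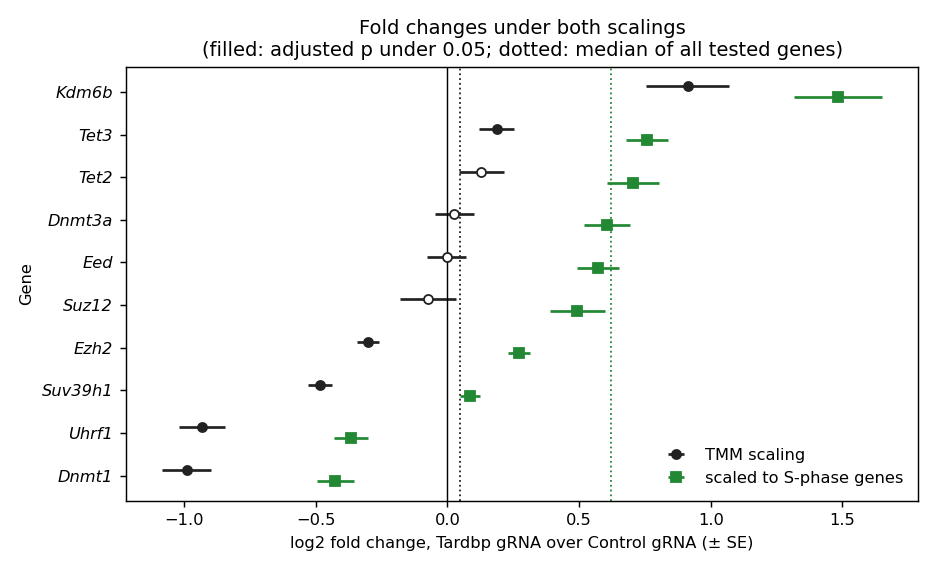
Log2 fold change (Tardbp gRNA over Control gRNA, ± SE, 8 libraries per group) of the 10 genes under TMM scaling (black circles) and scaled to 30 S-phase genes (green squares), with filled symbols at an adjusted p under 0.05 and dotted lines at the median of all tested genes, 0.05 and 0.62. Dnmt1 and Uhrf1 are below 0 under both, while Ezh2 and Suv39h1 are below 0 under TMM and above 0 on the S-phase scale.

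Libraries were also compared within their groups. Over the 16 libraries, each taken relative to its group mean of log2 CPM, the level of 4 of the 10 genes went with the S-phase mean. Pearson's r was 0.81 for Suv39h1, 0.80 for Uhrf1, 0.76 for Dnmt1 and 0.70 for Ezh2, with unadjusted two-sided permutation p values (100000 permutations within groups, 10 relations computed) of 0.002, 0.00222, 0.00356 and 0.00654. Spearman's rho was 0.74, 0.84, 0.68 and 0.74 for the same genes (unadjusted permutation p 0.00336, 0.00037, 0.0109 and 0.00271). Without the 2 libraries farthest from the median of the S-phase mean, r was 0.60, 0.67, 0.61 and 0.49. Within Tardbp gRNA alone r was 0.89, 0.86, 0.91 and 0.76, and within Control, where the S-phase mean varied less, it was 0.46, 0.57, 0.23 and 0.55. Suz12 had an r of 0.70 within Tardbp gRNA and 0.062 within Control. For Suz12 over all 16 libraries (r = 0.37, rho = 0.31) and Eed (0.24, 0.24) the unadjusted permutation p was 0.126 or more, and for the other 4 genes r lay between -0.17 and 0.03. All levels share their scaling within a library.

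Among the 10 genes, r was highest for Ezh2 with Suv39h1 (0.85), Dnmt1 with Uhrf1 (0.84) and Suz12 with Eed (0.78), and lowest for Eed with Tet2 (-0.69). These pairs are a description and carry no test.

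**Figure D3:**
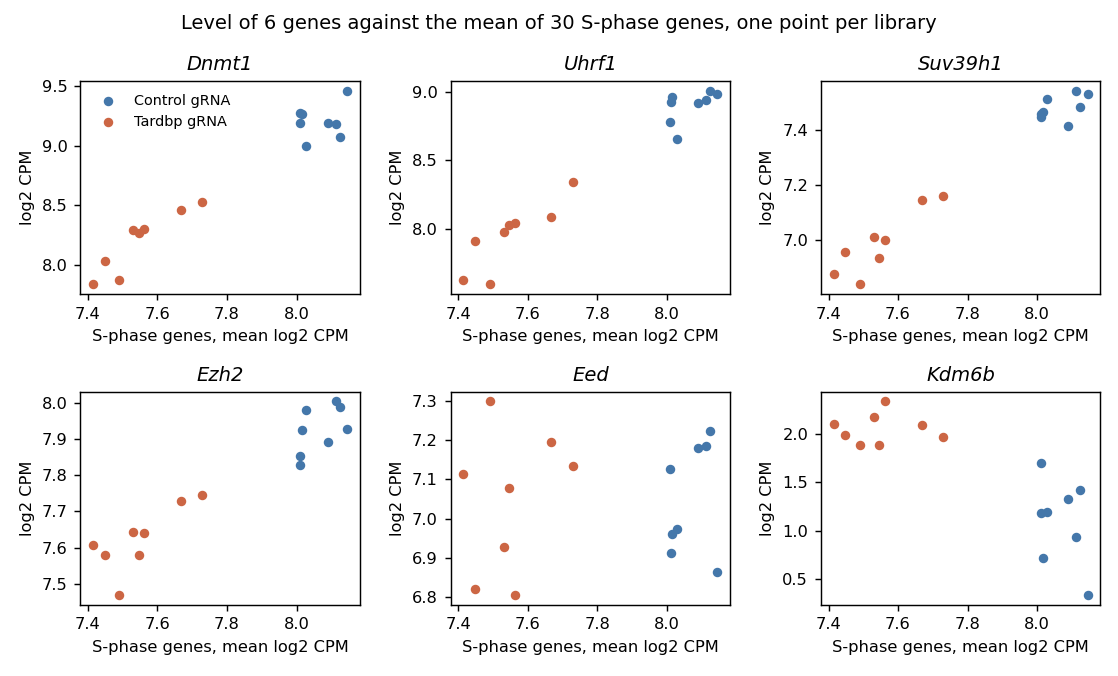
Level of 6 genes (log2 CPM) against the mean log2 CPM of 30 S-phase genes, 1 point per library, with Control gRNA in blue and Tardbp gRNA in orange. The 2 groups do not overlap on the horizontal axis (8.01 to 8.15 against 7.41 to 7.73), and Dnmt1, Uhrf1, Suv39h1 and Ezh2 go with it within Tardbp gRNA (r from 0.76 to 0.91), where r was 0.23 for Eed and 0.0028 for Kdm6b and, not drawn, 0.70 for Suz12.

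The 3 genes most like each of the 10 over the same 16 libraries, out of 8976 compared, were as follows. For Dnmt1 they were E2f8, a repressor of the E2F family (r = 0.96), the elongation factor gene Supt5 (0.96) and Ganab (0.95), and for Uhrf1 the translation initiation factor gene Eif4g1 (0.95), Pold1, a subunit of DNA polymerase delta (0.94), and Cse1l (0.92). For Ezh2 they were Aunip (0.88), Pcna (0.87) and Arl8b (0.86), and for Suv39h1 they were Acaca (0.86), Tdp1 (0.86) and Ezh2 itself. Suz12 was most like Baz1a (0.92), Trim28 (0.90) and Bysl (0.89), and Eed most like Trim28 (0.92), Guf1 (0.92) and Cdr2 (0.91), so the co-repressor gene Trim28 was near both. Dnmt3a was most like Nfkb2 (0.81), Myc (0.79) and Polr3e (0.76), Tet2 most like Rinl (0.89), Zbtb17 (0.86) and Tspoap1 (0.86), and Tet3 most like Osbp (0.79), Kmt2b (0.78) and Taok1 (0.78). Kdm6b, the one with the fewest counts, reached only 0.81 with Gm37164, 0.75 with Gm5527 and 0.71 with Rpl36a-ps2.

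Genes that work beside the 10 were then read from the same fit. Their medians stand beside 0.05 for all tested genes, or 0.62 on the S-phase scale. Their counts stand beside 23.5% of all tested genes higher and 23.3% lower, or 73.1% and 2.23% on the S-phase scale. Of the 10 tested PRC2 partners 3 were lower and 3 higher, with a median log2 fold change of 0.0024, where on the S-phase scale 9 were called and all of them higher. The lower ones were Phf19 (33.6 to 22.9 CPM, log2 fold change -0.55), which reads methylated histone H3, and the histone-binding subunits Rbbp7 (-0.30) and Rbbp4 (-0.28), the last named because it completes the 3. The higher ones were Phf1 (8.27 to 14.6 CPM, 0.82), a relative of Phf19, Lcor (0.49) and Ezh1 (0.25), which encodes the other catalytic subunit of PRC2 and is named for the same reason. Jarid2 (0.05), Aebp2 (0.12), Mtf2 (-0.04) and Epop (-0.06) were not called, and AU022751, the gene of a PRC2 inhibitor, was at a count of 0 in all libraries. Thus Ezh2 (-0.30, lower) and Ezh1 (0.25, higher) differed in opposite directions under TMM, where on the S-phase scale both were higher (0.27 and 0.83).

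PRC1 acts beside PRC2 and places ubiquitin on histone H2A. Of its 24 genes, 5 were lower and 7 higher, with a median of 0.0053, and 19 were higher and 0 lower on the S-phase scale. The lowest were Cbx2, which reads H3K27 methylation (27.4 to 17.0 CPM, -0.69), and L3mbtl2 (-0.49), and the highest were Phc2 (0.52) and Yaf2 (0.49). The catalytic genes Ring1 (0.24) and Rnf2 (0.22) were both higher and are named after their values were seen.

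Of the 19 tested genes that work beside the DNA methylation enzymes, 8 were lower and 2 higher, with a median of -0.10, and 14 were higher and 0 lower on the S-phase scale. The lowest was Cdca7 (307.8 to 197.0 CPM, log2 fold change -0.64, edgeR adjusted p 3.36e-08), which recruits the remodeller HELLS, whose own gene was at -0.53. Next came Ahcy (-0.58), which clears the product of methyl transfer. Zbtb4 was higher (1.36) at under 3 CPM. Dnmt3b, the other enzyme of new methylation, was at 7.95 and 7.42 CPM and was not called (-0.10), and Dnmt3l was at a count of 0 in all libraries. Cdca7 and Hells were at -0.07 and 0.04 on the S-phase scale, and neither was called there, where Dnmt1 and Uhrf1 were.

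Of 15 genes of H3K9 methylation, 8 were lower and 2 higher, with a median of -0.31, and 11 were higher and 0 lower on the S-phase scale. Setdb1, an H3K9 methyltransferase of silent repeats, fell from 59.2 to 39.9 CPM (-0.57) and Morc2a was at -0.52, while Mphosph8 (0.23) and Fam208a (0.19), subunits of the HUSH complex that works with both, were higher. Suv39h2, the paralog of Suv39h1, was at 14.6 and 11.5 CPM (-0.34) and was not called (edgeR adjusted p 0.0849).

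Of 20 other histone lysine demethylases, 6 were lower and 6 higher, with a median of -0.08, and 18 were higher and 1 lower on the S-phase scale. Kdm6a, the paralog of Kdm6b, was lower (49.8 to 40.4 CPM, -0.30, edgeR adjusted p 0.00977), and its Y-linked relative Uty was not called (-0.08). The highest were the H3K4 demethylase gene Kdm5b (6.32 to 16.9 CPM, log2 fold change 1.41, edgeR adjusted p 1.12e-05) and Jmjd1c (0.66), and the lowest Kdm8 (-0.77) and the X-linked Kdm5c (-0.76). Kdm5b and Kdm5c, 2 demethylases of the same mark, thus differed in opposite directions, under S-phase scaling too for Kdm5b (1.99) while Kdm5c (-0.20) was then not called.

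**Figure D4:**
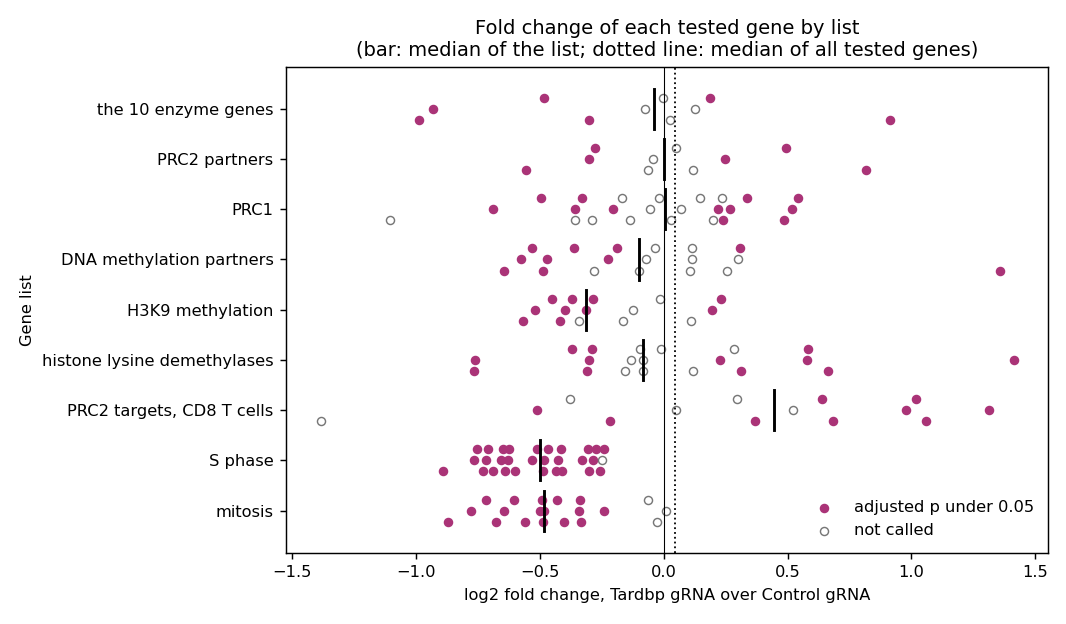
Log2 fold change under TMM (Tardbp gRNA over Control gRNA) of each tested gene in 9 lists, with filled points at an adjusted p under 0.05, a bar at the median of the list and a dotted line at the median of all tested genes (0.05). The S-phase and mitosis lists have medians of -0.50 and -0.49, Dnmt1 and Uhrf1 in the top row lie at -0.99 and -0.93, and the list of PRC2 targets has its median at 0.44.

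Genes known to be silenced by these marks were read last. Of 14 genes described as PRC2 targets in CD8 T cells, 7 were higher and 2 lower, with a median log2 fold change of 0.44, and on the S-phase scale 11 were higher and 0 lower, with a median of 1.02. Of all tested genes, 23.5% were higher and 23.3% lower, and on the S-phase scale 73.1% were higher and 2.23% lower, so the count on that scale is near the share of all genes. Eomes, a factor of memory and effector cells, was at 1.06 (26.1 to 54.2 CPM, edgeR adjusted p 0.0191). Il7r (-0.51) and Ccr7 (-0.22), which also mark memory cells, were lower, although on the S-phase scale they were at 0.07 (not called) and 0.36. The cell cycle inhibitor genes Cdkn2a, Cdkn2b and Cdkn1c were all under 1 CPM in both groups and were not called. H3K27 methylation itself was not measured.

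Genes that T cells hardly use were mostly at or near a count of 0, where a difference was not detectable at this depth. Of 39 Hox genes, the best known PRC2 targets, 27 were at a count of 0 in all libraries and 1 passed the filter (Hoxb4, 0.233 and 0.342 CPM, edgeR adjusted p 0.152). The whole list summed to 0.23 to 0.549 CPM in Control and 0.288 to 0.771 CPM in Tardbp gRNA. Of 15 germline genes that DNA methylation is known to silence, 8 (Mael, Sycp2, Asz1, Tex101, Taf7l, Stk31, Mov10l1 and Dpep3) were at a count of 0 in all libraries, and the 1 tested, Dazl, was at 0.208 and 0.185 CPM and was not called (edgeR adjusted p 0.811). Their sum was 0.107 to 0.61 CPM in Control and 0 to 1.09 CPM in Tardbp gRNA.

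The 10 genes have 85 annotated transcripts, of which 46 passed the filter. Of these 8 were called (edgeR, adjusted p under 0.05), 3 higher and 5 lower, where 16.6% of 40897 transcripts tested over all genes were called, 8.5% higher and 8.14% lower. The counts per transcript are estimates that divide reads between overlapping isoforms, and they are less certain than the counts per gene.

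Dnmt1-201, the main transcript, fell from 563.8 ± 64.4 to 278.7 ± 54.1 CPM (SD, 8 libraries each; log2 fold change -1.06 with an SE of 0.109, edgeR adjusted p 7.82e-06). It held 0.951 of the gene's count in Control and 0.933 in Tardbp gRNA. In Uhrf1, Uhrf1-201 fell from 243.5 ± 21.7 to 143.5 ± 28.1 CPM (-0.80, edgeR adjusted p 8.95e-05) and Uhrf1-203 from 180.2 ± 21.3 to 73.8 ± 19.3 CPM (-1.33, 1.70e-05). The share of Uhrf1-203 went from 0.377 to 0.291 (SE 0.016, limma adjusted p 0.0084), a difference under the 0.1 asked for a call. None of the 45 transcript shares of the 10 genes was called, where 0.63% of 32701 shares tested over all genes were. With no minimum difference 3 of the 45 passed limma's adjusted p.

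Uhrf1-201 and Uhrf1-203 differ in their start and in a coding segment of 24 bases that an alternative splice acceptor adds. In Ezh2 a coding segment of 27 bases ends at an alternative splice donor, and it is in Ezh2-201 but not in Ezh2-204. The coding lengths of Ezh2-201 and Ezh2-204 are 2238 and 2226 bases, so this segment is not their only difference. The transcript sequence around each segment is given from GENCODE M21, with the segment in capitals and 18 bases on each side.
Uhrf1-201, chr17:56313041-56313064, plus strand: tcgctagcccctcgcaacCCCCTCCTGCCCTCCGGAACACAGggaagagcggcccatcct
Ezh2-201, chr6:47576536-47576562, minus strand: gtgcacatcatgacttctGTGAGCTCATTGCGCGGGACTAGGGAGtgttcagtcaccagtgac
Ezh2-204, without the segment, fell from 77.8 ± 9.46 to 49.4 ± 12.5 CPM (log2 fold change -0.70, SE 0.15, edgeR adjusted p 0.00399), while Ezh2-201 was at 132.5 ± 15.1 and 127.2 ± 24.5 CPM (-0.10, SE 0.117, 0.636). Ezh2 was thus called lower while its main transcript was not, as was Suv39h1 (Suv39h1-203, -0.34, edgeR adjusted p 0.161), but the difference between the 2 Ezh2 transcripts was not tested directly and the share of Ezh2-204 (0.320 and 0.252, limma adjusted p 0.211) was not called. Psi (the fraction of transcripts with the segment, in the pooled value the authors deposited per group) was 0.762 in Control and 0.727 in Tardbp gRNA for the Ezh2 segment and 0.809 and 0.848 for the Uhrf1 segment. The Psi columns carry the names A and B only, and every Psi direction here rests on reading A as Control, from the order in the study's text and from a Tardbp exon (chromosome 4, 148619184 to 148619354) with a Psi of 0.999 in A and 0.831 in B. Both differences are under 0.1, and pooled values allow no test. Psi of a 15-base segment at another Ezh2 splice donor (47551717 to 47551731) was 0.052 in Control and 0.040 in Tardbp gRNA. The loss of 27 bases and the gain of these 15 would give the coding lengths of 2238 and 2226 bases. On that reading Ezh2-204 holds the segment, and its share is far above this Psi. The counts and Psi then conflict, which makes the counts of Ezh2-204 less certain.

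Among the 3 transcripts that rose, 2 were retained-intron isoforms, which do not encode the full protein. Dnmt3a-202, which shares exons near the start of the gene and then runs into an intron, had 0.536, 0.883 and 1.37 CPM in Control gRNA and 2.22, 3.47 and 4.95 in Tardbp gRNA. No library overlapped, and the log2 fold change was 1.97 (SE 0.238, edgeR adjusted p 2.85e-05), the largest of the tested transcripts of the 10 genes among those called. Its share of the gene went from 0.015 to 0.058 (limma adjusted p 8.27e-04), in a gene that was itself not called. Tet2-210 had 0.78, 1.11 and 1.59 CPM in Control gRNA and 1.05, 2.31 and 2.84 in Tardbp gRNA, with overlap (log2 fold change 0.91, SE 0.231, edgeR adjusted p 0.0122), a call lost with numbers 4 to 8 alone (0.099). The share of the full-length Tet2-201 was 0.929 and 0.886 (limma adjusted p 0.0278). Kdm6b-201, the 1 tested transcript of its gene, followed the gene (0.84, edgeR adjusted p 0.0039). Suv39h1-205, the other retained-intron isoform that was called, fell from 36.9 ± 12.6 to 18.7 ± 9.16 CPM (-1.03, edgeR adjusted p 0.0305), a call lost under 10 of 20 other settings, 7 of them the loss of 1 library (Control replicates 4, 5, 7 or 8 or Tardbp gRNA replicates 3, 4 or 5, adjusted p up to 0.061).

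Dnmt3a-205, which starts inside the gene and has a shorter coding sequence, divided the Tardbp gRNA libraries. It was at 32.0, 27.2 and 23.4 CPM in replicates 1, 5 and 8 and at 0 to 1.23 CPM in the other 5, against 0 to 1.67 CPM in Control. In the same 3 libraries Dnmt3a-201 was at 30.5, 28.4 and 29.0 CPM, and in the other Tardbp gRNA libraries between 53.6 and 65.1 CPM. The difference between groups was not called (log2 fold change 3.88, SE 1.49, edgeR adjusted p 0.092).

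**Figure D5:**
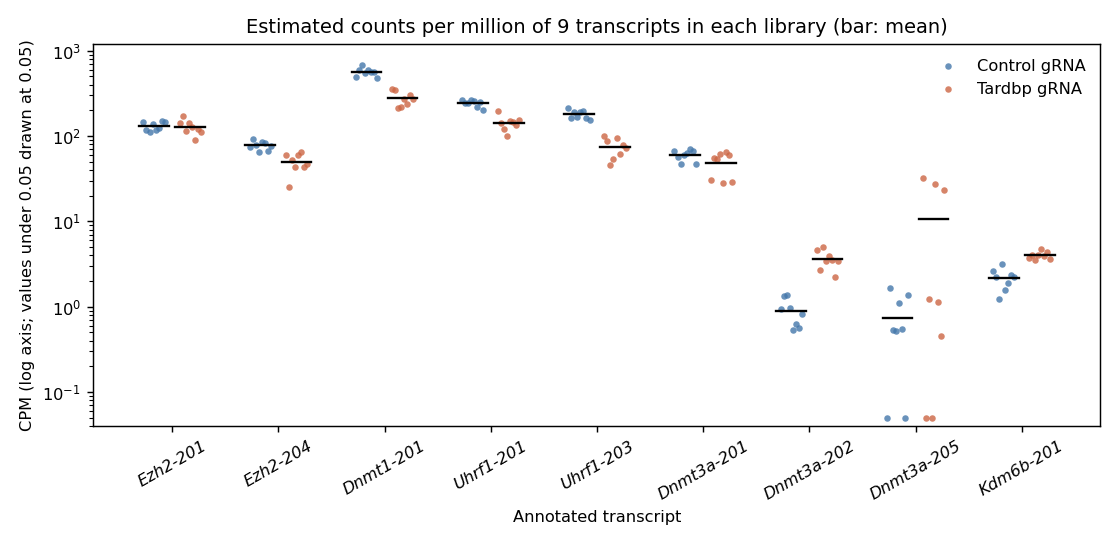
Estimated level in CPM (log axis, values under 0.05 drawn at 0.05) of 9 transcripts in each library, with Control gRNA in blue, Tardbp gRNA in orange and a bar at each mean of 8. Ezh2-204, Dnmt1-201, Uhrf1-201 and Uhrf1-203 lie lower and Dnmt3a-202 and Kdm6b-201 higher in Tardbp gRNA, Ezh2-201 overlaps, and Dnmt3a-205 is between 23.4 and 32.0 CPM in 3 Tardbp gRNA libraries and at most 1.67 CPM in all others.

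Of 179 Psi nodes in the 10 genes, 7 differed by over 0.1 between the pooled values, or 3.91%, against 4.7% of 125520 nodes in all genes. The widest were the tandem 3′ end nodes of Dnmt3a. The node up to the proximal end (chromosome 12, 3911276 to 3913491) had a Psi of 0.549 in Control and 0.264 in Tardbp gRNA, and the node reaching 952 bases further (3913492 to 3914443) had 0.451 and 0.737. The last 30 bases of a transcript annotated to each end are given, since a hexamer that directs cleavage often lies there, with a match to AATAAA or ATTAAA in capitals.
Dnmt3a-201, distal end, chr12:3914414-3914443, plus strand: tcAATAAAcatctttatgttttggcttccc
Dnmt3a-218, proximal end, chr12:3913462-3913491, plus strand: tggactgtttttgtgcaaaaagaaaaacgg
The counts per transcript did not show this pattern, since Dnmt3a-218 was at a count of 0 in all libraries and Dnmt3a-201 held 0.969 of the Control count. The distal end holds AATAAA and the proximal end holds neither hexamer in this window, where 44.1% of 58797 protein-coding transcripts hold one. The last 30 bases of an annotated transcript need not be a cleavage site.

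The other nodes over 0.1 were at transcript starts, except for 1 exon. In Uhrf1 the start node at 56303321 to 56303399 went from 0.455 to 0.180 and the next one, at 56303400 to 56303561, from 0.544 to 0.820. This is opposite to the transcript counts, in which the share of Uhrf1-203, which starts at 56303400, was lower in Tardbp gRNA. In Suv39h1 the start node at 8074730 to 8074760 went from 0.876 to 0.727 and the next one, at 8074544 to 8074729, from 0.124 to 0.272. The transcript shares leaned the other way here too, although neither was called. Suv39h1-203, which starts at 8074760, had shares of 0.555 in Control and 0.634 in Tardbp gRNA. Suv39h1-205, which starts at 8074621, had 0.208 and 0.145. In Tet3 a coding exon of 138 bases (83373194 to 83373331) went from 0.947 to 0.846. Dnmt1, with 40 nodes, had no difference over 0.00629, and Eed, with 10 nodes, none over 0.00593, the lowest such values of the 10 genes.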

How the data were processed

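RNA of 16 sorted CD8+ T cell samples was amplified (SMART-Seq v4), tagmented (Nextera XT) and read as pairs of 100 bases. The authors' alignment to mm10 was by HISAT2 2.1.0, and they deposited estimated counts per gene and transcript from StringTie 2.1.0, with no normalization, and counts of read pairs from the sequencing facility. Psi was deposited as a fraction per group from Whippet, pooled over 8 libraries, and no test was run on it; its columns A and B were read as Control and Tardbp gRNA. The authors' difference and probability columns hold their own comparisons and were not used. Of each count table, 10 columns match no sample and were left aside, and lines that name no annotated gene held 0.0836 to 0.132% of the counts.

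Genes and transcripts of GENCODE M21 were fitted by edgeR 4.0.16 in R 4.3.3 (quasi-likelihood, TMM, filterByExpr with a minimum count of 10, two-sided, Benjamini-Hochberg over all features, called under 0.05), transcript shares with limma 3.58.1 at a difference over 0.1, with DESeq2 1.42.0 as an alternative. SE is the fold change over the root of F. Log2 CPM used a prior count of 2. The edgeR fits of genes and transcripts, the S-phase scaling, DESeq2 and the transcript shares were tried on simulated data. The test by letter, the permutations and the Dixon gaps were not. CPM without molecular identifiers counts PCR copies. Replicates were 8 recipients per group. Labelled numbers were not taken as pairs. The 10 genes and all lists were chosen with earlier results of these data known. Within each list the named genes are the 2 highest and 2 lowest fold changes among its called genes whose mean log2 CPM was 3 or more, and genes at a count of 0; others were named after their values were seen. Some genes that this rule names are not reported here. Alternatives were other size factors, DESeq2, no filter, blocks, covariates, subsets and leaving out each library.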

Additional observations from a re-analysis of the deposited data

Results flagged for a closer look

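In 22 groups of 8 libraries (the 10 genes and Tardbp in each group), the gap of the highest or lowest library to its neighbour was set against Dixon's critical value at 95%, which chance passes in about 1 of 20 groups. It was passed in 2. Tet2 was at 29.6 CPM in Tardbp gRNA replicate 6, where the next library had 24.5 CPM. Tardbp was at 110 CPM in Tardbp gRNA replicate 3, where the next library had 129.8 CPM. In replicate 3 Ezh2, Uhrf1, Suv39h1 and Kdm6b also had their lowest level of the group, and Eed its highest. A test of whether the guide's effect on any of the 10 genes differed between the letters M and F called none, with none at an unadjusted p under 0.05.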

How the results depend on the processing

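Dnmt1, Uhrf1 and Suv39h1 kept their direction and call under all 26 alternatives, with log2 fold changes from -1.17 to -0.94, -1.02 to -0.86 and -0.60 to -0.46. Ezh2 and Kdm6b lost theirs only with numbers 1 to 3 alone (3 libraries per group, which stood apart on the second principal component, edgeR adjusted p 0.103 and 0.0885). Tet3 lost its call under 18 of 26, with adjusted p up to 0.534. Dnmt3a was called when log2 RNA concentration was a covariate (0.47, edgeR adjusted p 0.0128), although that concentration does not overlap between groups. The 7783 calls over all genes became 2697 with RNA concentration and 1696 with numbers 1 to 3 alone, those of the 10 genes went from 6 to 3 with numbers 1 to 3 alone, and those of all lists from 105 to 65 and 50. Relative to S-phase genes, 10 genes were called, and 0 with the S-phase mean as a covariate, where Dnmt3a (-0.0077), Tet2 (-0.037) and Suv39h1 (-0.060) changed sign. Scaled to mitosis genes 8 were called, with Ezh2 at 0.11 and Suv39h1 at -0.074. Called shares went from 0 to 1 with a difference over 0.05 and 3 with no minimum. With the number as a replicate block, 7645 genes were called, 5 of the 10 genes (Tet3 at an adjusted p of 0.0523), 9 relative to S-phase genes and 7 of their transcripts. Same-numbered libraries correlated at -0.0042 to 0.118. The Tardbp gRNA library most like each Control library had the same number for 1, 2 and 3, and another number for 4 to 8. The numbers were not used as pairs because the methods name no pairing, and these values do not exclude one.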
